A study of Mus musculus with 18 samples.

Results

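The expression of 35 genes of T cells, natural killer (NK) cells and immune checkpoints was followed in mammary tumours of ERBB2 transgenic mice. The genes were taken by symbol from the array's annotation as a set of known roles, by a choice made with earlier results of these data known, and all 35 were matched to a probe set among 19938 genes tested. They comprise 7 genes of the T cell receptor's CD3 chains and of its coreceptors, 7 of T cell signalling and costimulation, 3 of the interleukin 2 receptor and regulatory T cells, 6 checkpoint genes, 5 cytotoxic effectors, 3 NK cell receptors and 4 transcription factors. By the RefSeq table of GRCm38.p6, 7 of the genes lie on chromosome 1, 6 on chromosome 6 and 4 on chromosome 9, and the others on further chromosomes.

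RNA of whole tumours was hybridised to 18 single-colour Affymetrix arrays, and each value is a log2 intensity. Every mouse carried the neu (ErbB2) transgene of FVB/N-Tg(MMTVneu)202Mul/J, driven by the mouse mammary tumour virus promoter, and the labels call the tumours luminal and ERBB2+. The Snai2 KO mice carried the germline null allele of B6;129S1-Snai2tm2Grid/J, so blood and stromal cells of these hosts lacked Snai2 along with the tumour cells. The groups were WT nulliparous with metastasis (4 tumours), WT parous with metastasis (4), KO nulliparous with metastasis (1), KO nulliparous without metastasis (3), KO parous with metastasis (3 arrays) and KO parous without metastasis (3). There was no WT group without metastasis, and the ages of the mice were not given in the sources used here. In the group of KO parous mice with metastasis, arrays 2 and 3 differed very little (SD of their difference 0.102, against 0.285 for the next closest of 153 pairs), and their mean was used as 1 sample, which left 17.

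T cells recognise antigen through the T cell receptor, whose CD3 chains pass the signal to the kinase ZAP70 and the adaptor LAT, while CD4 or CD8 binds the MHC molecule that presents the peptide. Activated CD8 T cells and NK cells kill by releasing perforin and granzymes from granules, and both make interferon gamma, which raises antigen presentation and PD-L1 on tumour and myeloid cells. Checkpoint receptors such as PD-1, CTLA-4, LAG-3, TIM-3 and TIGIT restrain activated T cells, and PD-L1 is the ligand of PD-1. In mammary tumours these genes are used as readouts of how many lymphocytes are present and in what state. In bulk tumour RNA, fewer cells of a type and less RNA per cell cannot be told apart.

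The tumours carried high levels of luminal genes of the labelled tissue. Mean log2 values over 17 samples were 13.24 for Krt8, 13.19 for Krt18 and 12.72 for Epcam. Erbb2 stood at 12.77, in mice that all carried the neu (ErbB2) transgene. Snai2 stood at 6.84 ± 0.17 (SD, n = 8) in WT samples and, lower, at 6.54 ± 0.17 (SD, n = 9) in KO samples. Array medians lay between 7.60 and 7.67. Most of the 35 genes gave dim signals, where the array's summary compresses differences, and 32 had a mean log2 value below the median gene (8.10). Their spread over the 17 samples was nevertheless wider than that of a typical gene, with a median SD of 0.23 against 0.17 over all genes.

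The 35 genes were highest in tumours of nulliparous WT mice. Their mean log2 level was 6.97, 6.73, 7.44 and 6.97 in the 4 WT nulliparous tumours and 6.95 in the single KO nulliparous tumour with metastasis. The other 12 samples lay between 6.48 and 6.69, below all 5 of these. Group means were 7.03 ± 0.29 (SD, n = 4) in WT nulliparous, 6.63 ± 0.06 (SD, n = 4) in WT parous, 6.54 ± 0.06 (SD, n = 3) in KO nulliparous without metastasis and 6.62 ± 0.06 (SD, n = 3) in KO parous without metastasis; the pair of KO parous samples with metastasis stood at 6.53 and 6.54.

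**Figure D1:**
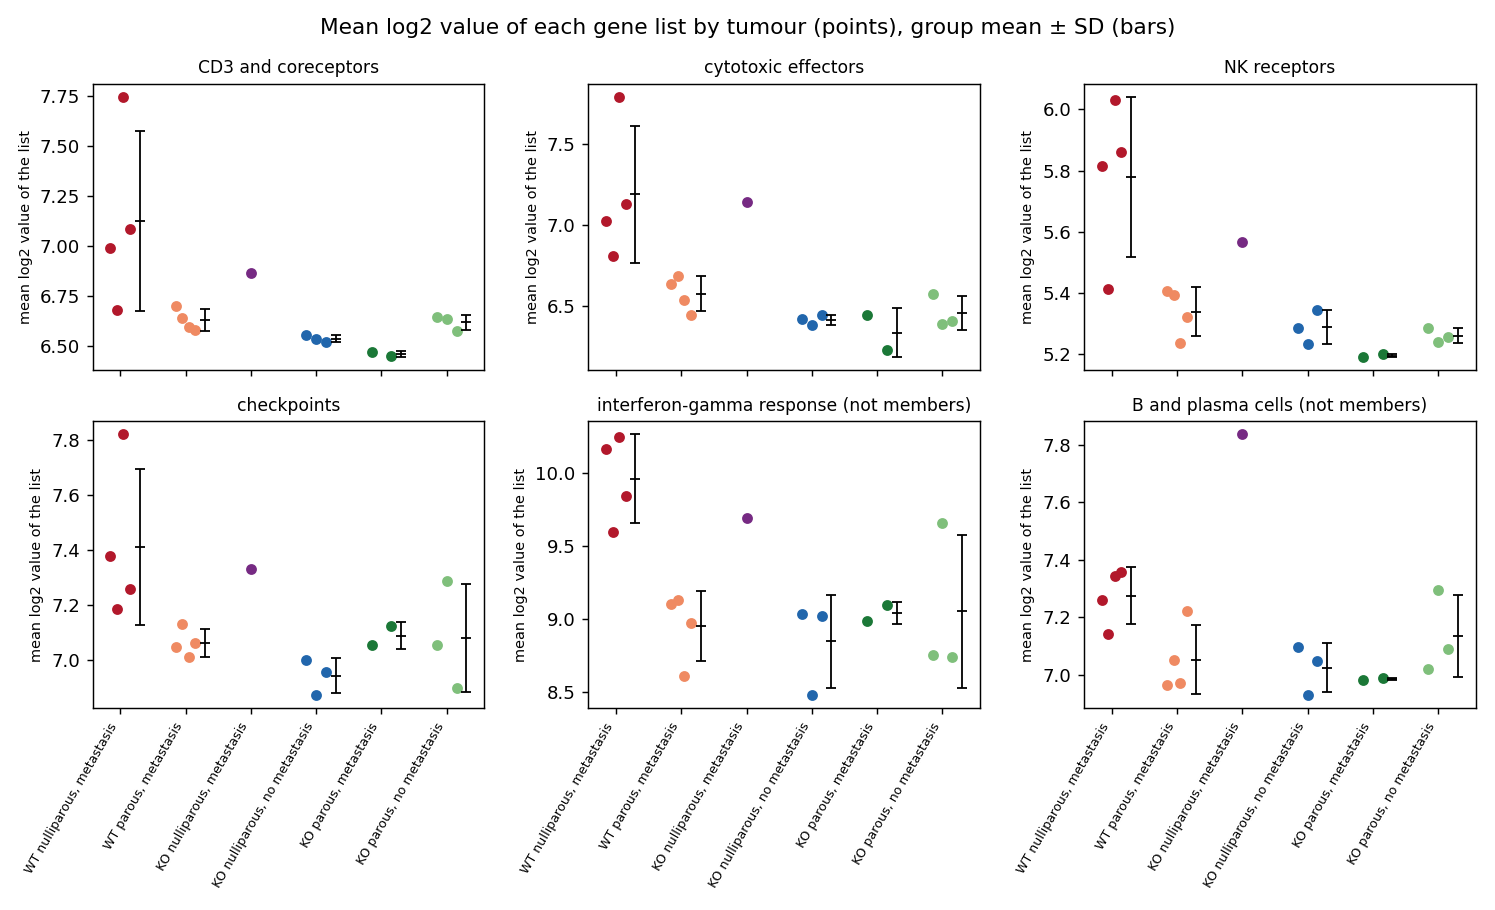
Mean log2 value of 4 role groups of the genes and, for comparison, of the interferon gamma response list and the B and plasma cell list; each point is a sample and bars give the group mean with its SD. The cytotoxic effectors run from 6.81 to 7.79 in WT nulliparous tumours and from 6.44 to 6.68 in WT parous ones, and the KO nulliparous tumour with metastasis lies at 7.14 for the effectors and 7.84 for B and plasma cells.

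A single tumour stood out within the high group. In 27 of the 35 genes the highest of all 17 values belonged to WT nulliparous replicate 3, where 6% of all genes had their highest value. The KO nulliparous tumour with metastasis was highest for Ifng and Prf1 and second highest for 8 other genes. Ncr1 and Cd247 were highest in WT nulliparous replicate 4. The remaining 4 were Foxp3, highest in KO parous without metastasis replicate 1, Havcr2, in replicate 2 of the same group, Gata1, in WT parous replicate 4, and Ikzf1, in KO nulliparous without metastasis replicate 1.

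**Figure D2:**
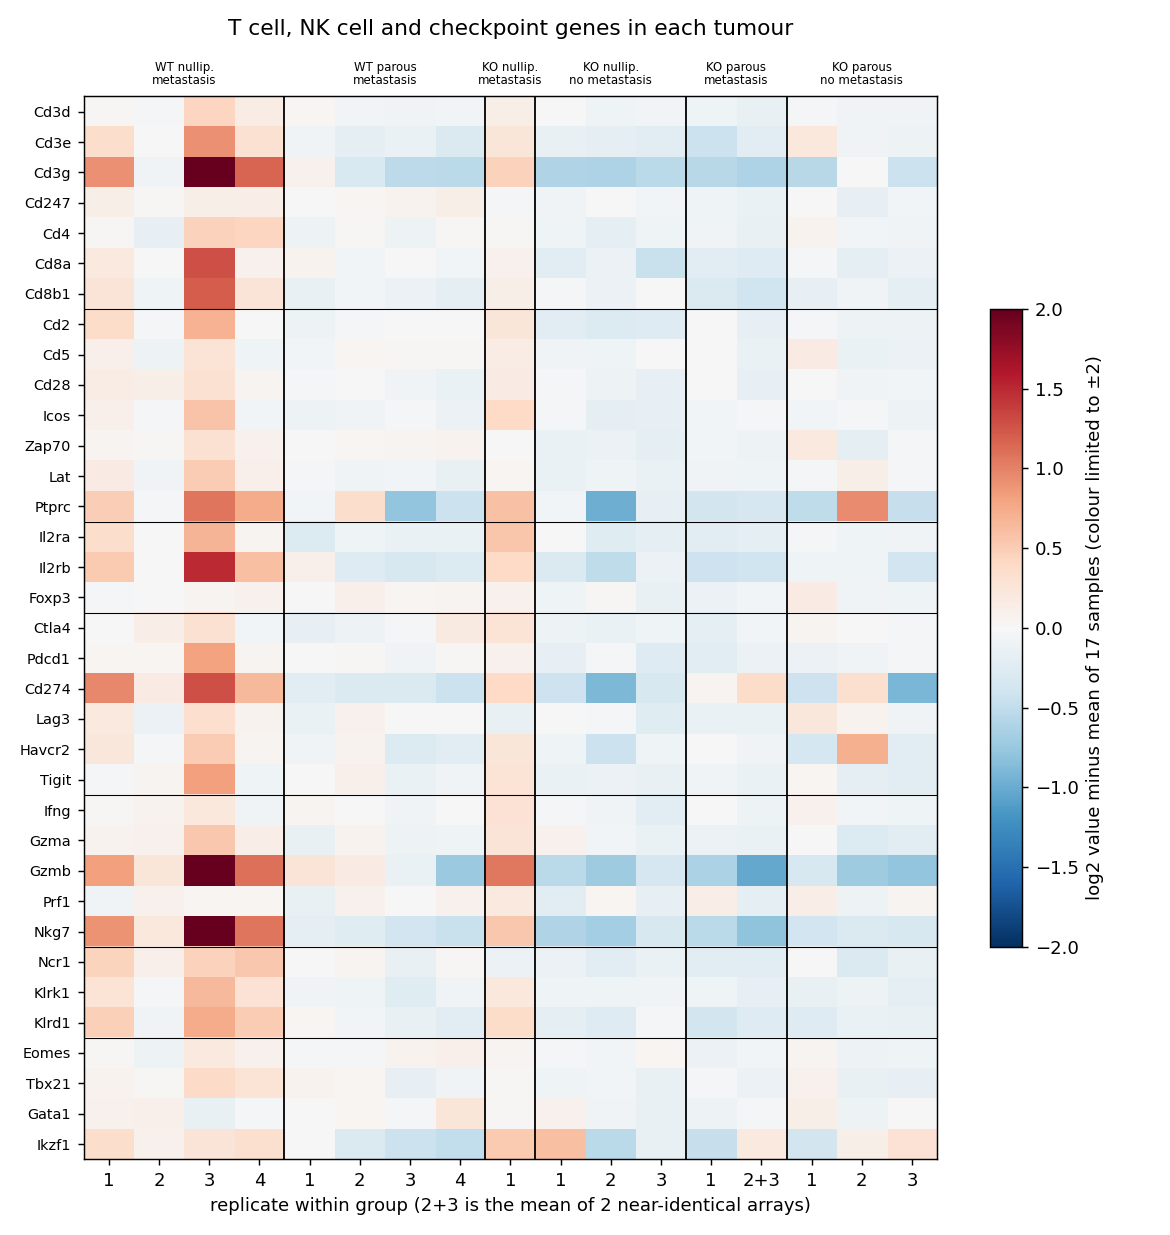
Log2 level of each of the 35 genes (rows, by role) in each of the 17 samples (columns, by group), shown as the deviation from the gene's mean over the samples, with the colour limited to 2 log2 units either way. The WT nulliparous columns and the KO nulliparous column with metastasis carry most of the positive deviations, and WT nulliparous replicate 3 holds the highest value of 27 genes.

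The first comparison asked whether a history of pregnancy went with a different lymphocyte content in tumours of WT mice, all with metastasis (4 parous against 4 nulliparous). Tumours of parous mice had lower Nkg7, a granule protein of cytotoxic lymphocytes, and lower Ncr1, the NK cell receptor NKp46. Both fell past the threshold of limma's Benjamini-Hochberg adjusted p of 0.05, as did 1.86% of all genes. None of the 35 rose, against 0.542% of all genes (2.4% in either direction). Nkg7 and Ncr1 were dim, with mean log2 values over 17 samples of 6.935 and 5.585, and both lay among the dimmest 40% of genes. The direction was shared widely: 33 of the 35 differences were below 0 (51.7% of all genes), with a median of -0.25 on the log2 scale against -0.005 over all genes. At an unadjusted p under 0.05, 18 of the 35 were lower, against 9.81% of all genes. In 10 genes every parous value lay below every nulliparous one, against 7.63% of all genes, and in none did every parous value lie above (4.98% of all genes). These 10 were Cd274, Cd28, Cd3e, Gzma, Ikzf1, Il2ra, Klrk1, Ncr1, Nkg7 and Pdcd1.

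Among the cytotoxic effectors, Nkg7 read 7.83, 7.14, 9.43 and 8.01 in the nulliparous WT tumours and 6.74, 6.69, 6.55 and 6.48 in the parous ones. The groups did not overlap, although nulliparous replicate 2 stood close to the parous tumours. Nkg7 fell by 1.48 (SE 0.34; 2.80-fold; limma adjusted p = 0.0385). Gzmb, the granzyme that triggers apoptosis in target cells, read 7.88, 7.30, 9.37 and 8.16 in nulliparous and 7.32, 7.23, 6.93 and 6.33 in parous tumours. Its groups overlapped at nulliparous replicate 2 and parous replicate 1, and the difference of -1.23 (SE 0.35) did not pass (limma adjusted p = 0.0885). Gzma, a second granule protease, read 5.32 to 5.79 in nulliparous and 5.10 to 5.31 in parous tumours, with a difference of -0.27 (limma adjusted p = 0.193). The 2 other effector genes were flat: perforin, Prf1, differed by -0.02 (SE 0.087) with values of 7.26 to 7.42 and 7.18 to 7.42, and the cytokine gene Ifng by -0.07 (SE 0.069).

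All 3 NK cell receptor genes had differences below 0 in parous tumours, and 1 passed the threshold. Ncr1 read 6.03, 5.68, 6.05 and 6.12 in nulliparous and 5.60, 5.64, 5.43 and 5.60 in parous tumours. The groups did not overlap, and Ncr1 fell by 0.40 (SE 0.093; 1.32-fold; limma adjusted p = 0.042). Klrk1, which encodes the activating receptor NKG2D, read 5.43, 5.13, 5.80 and 5.45 against 5.08, 5.08, 4.92 and 5.09. It too did not overlap, but its difference of -0.41 (SE 0.11) missed the threshold (limma adjusted p = 0.0606). Klrd1, which encodes the CD94 chain shared by inhibitory and activating receptors, had a difference of -0.51 (SE 0.14; limma adjusted p = 0.0666), and nulliparous replicate 2, at 5.43, lay among the parous values of 5.28 to 5.54.

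**Figure D3:**
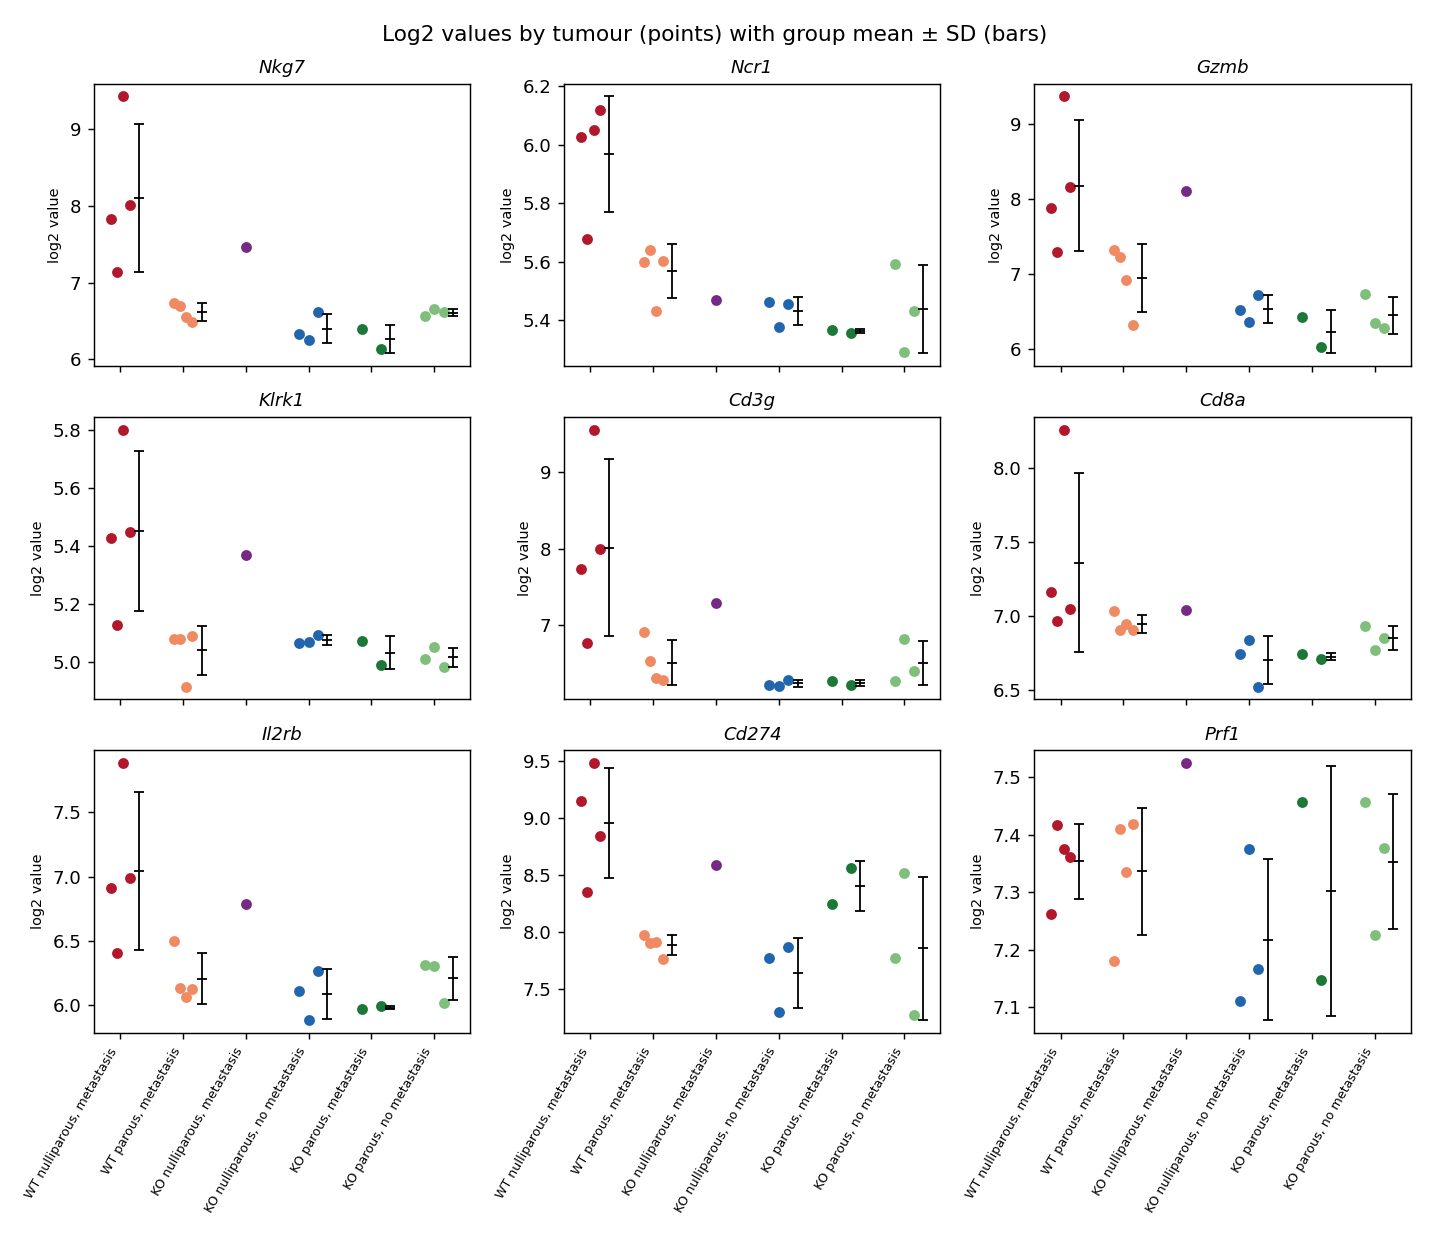
Log2 level of 9 of the genes in each sample, by group, with the group mean and SD; each point is a sample. Nkg7, Gzmb and Cd3g show the highest values in WT nulliparous replicate 3 (9.43, 9.37 and 9.55), and the KO nulliparous tumour with metastasis lies above the parous WT tumours for Nkg7 (7.47) and Gzmb (8.11).

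The start regions of the genes with the smallest adjusted p in this comparison are shown because factors of activated T and NK cells (T-bet and Eomes, Runx, Ets and STAT proteins) are known to act at such genes. RefSeq windows of GRCm38.p6, from 250 bases before to 50 after a transcript start, were given for 27 of the 35 genes. They were given for 8 of the 10 genes with the smallest adjusted p, and all 8 are printed in that order; the other two are Klrd1 and Il2rb. Both strands were searched for AGGTGTG (T-box), TGTGGT (Runx), AGGAAG (Ets) and TTCNNNGAA (GAS, bound by STAT proteins), and a base could belong to more than 1 match. Capitals mark the matches in either orientation, and each window reads from 5′ to 3′ along the gene's strand: Nkg7 (chr7:43436888-43437187, plus strand), Ncr1 (chr7:4337465-4337764, plus), Cd274 (chr19:29367188-29367487, plus), Klrk1 (chr6:129623815-129624114, minus), Cd3e (chr9:45009562-45009861, minus), Cd3g (chr9:44980382-44980681, minus), Il2ra (chr2:11642542-11642841, plus) and Gzmb (chr14:56262285-56262584, minus).
Nkg7: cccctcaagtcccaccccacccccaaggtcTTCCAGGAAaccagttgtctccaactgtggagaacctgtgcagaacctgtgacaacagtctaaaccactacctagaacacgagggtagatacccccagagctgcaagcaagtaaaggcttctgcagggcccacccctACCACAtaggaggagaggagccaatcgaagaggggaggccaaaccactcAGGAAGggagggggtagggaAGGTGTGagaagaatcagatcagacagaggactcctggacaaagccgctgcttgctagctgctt
Ncr1: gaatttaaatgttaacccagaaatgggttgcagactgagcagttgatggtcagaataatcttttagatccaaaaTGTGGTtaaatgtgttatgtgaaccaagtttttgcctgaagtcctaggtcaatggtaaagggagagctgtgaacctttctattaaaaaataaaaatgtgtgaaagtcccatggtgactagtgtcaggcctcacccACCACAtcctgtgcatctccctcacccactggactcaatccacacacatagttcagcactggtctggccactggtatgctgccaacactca
Cd274: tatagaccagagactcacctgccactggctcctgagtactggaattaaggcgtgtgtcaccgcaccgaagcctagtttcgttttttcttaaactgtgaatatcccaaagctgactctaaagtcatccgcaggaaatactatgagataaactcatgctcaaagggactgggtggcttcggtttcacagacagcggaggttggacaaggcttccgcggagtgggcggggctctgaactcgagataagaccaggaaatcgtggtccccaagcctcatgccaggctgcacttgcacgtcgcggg
Klrk1: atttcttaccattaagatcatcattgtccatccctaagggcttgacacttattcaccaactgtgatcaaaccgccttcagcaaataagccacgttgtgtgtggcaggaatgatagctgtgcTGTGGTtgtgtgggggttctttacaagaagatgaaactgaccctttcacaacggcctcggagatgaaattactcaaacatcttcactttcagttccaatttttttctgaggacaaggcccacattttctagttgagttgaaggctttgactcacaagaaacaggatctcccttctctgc
Cd3e: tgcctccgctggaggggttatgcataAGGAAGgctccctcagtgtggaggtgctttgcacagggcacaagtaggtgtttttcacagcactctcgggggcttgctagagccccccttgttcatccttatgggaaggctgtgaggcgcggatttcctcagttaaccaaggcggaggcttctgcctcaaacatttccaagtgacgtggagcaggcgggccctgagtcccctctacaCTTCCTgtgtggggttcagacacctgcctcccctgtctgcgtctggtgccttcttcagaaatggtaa
Cd3g: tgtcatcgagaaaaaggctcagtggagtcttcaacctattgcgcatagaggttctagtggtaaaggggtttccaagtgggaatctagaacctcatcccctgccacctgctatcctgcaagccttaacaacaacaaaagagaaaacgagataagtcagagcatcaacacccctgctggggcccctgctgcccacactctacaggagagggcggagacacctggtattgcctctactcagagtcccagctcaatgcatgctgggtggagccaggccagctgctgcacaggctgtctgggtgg
Il2ra: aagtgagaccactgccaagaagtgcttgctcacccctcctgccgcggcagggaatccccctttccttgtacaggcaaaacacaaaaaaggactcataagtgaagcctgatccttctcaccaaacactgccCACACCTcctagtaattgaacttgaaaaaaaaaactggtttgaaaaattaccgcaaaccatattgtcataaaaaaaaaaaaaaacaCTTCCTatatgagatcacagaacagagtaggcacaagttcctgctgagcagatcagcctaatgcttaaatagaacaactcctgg
Gzmb: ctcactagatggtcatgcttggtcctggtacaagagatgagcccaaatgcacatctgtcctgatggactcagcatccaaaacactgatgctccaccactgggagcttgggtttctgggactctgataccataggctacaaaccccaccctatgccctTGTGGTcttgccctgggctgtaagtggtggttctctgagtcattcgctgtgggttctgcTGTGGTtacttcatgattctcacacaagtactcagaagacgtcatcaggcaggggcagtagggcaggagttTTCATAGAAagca

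The Nkg7 window held 1 match each of the T-box, Runx, Ets and GAS motifs. Ncr1 held 2 Runx matches, Klrk1 held 1, and Gzmb held 2 together with 1 GAS match. Cd3e held 2 Ets matches and Il2ra held 1 T-box and 1 Ets match, while none of the 4 motifs was found in these letters of Cd274 and Cd3g. Over the 33 windows of the 27 genes, which include overlapping windows of the same gene, the Runx motif was present in 33.3% and over all 32851 windows in 16.8%. The shares were 57.6% and 35.4% for the Ets motif, 18.2% and 8.3% for GAS, and 9.09% and 5.84% for the T-box motif. A match describes the letters of the window and does not show binding.

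The CD3 chains of the T cell receptor complex all had differences below 0, and none passed. Cd3g read 7.74, 6.76, 9.55 and 8.0 in nulliparous and 6.92, 6.53, 6.31 and 6.29 in parous WT tumours. Nulliparous replicate 3 was far above the rest and replicate 2 lay below parous replicate 1, so that the difference of -1.50 (SE 0.41), the largest of the 35, did not pass (limma adjusted p = 0.0782). Cd3e read 7.88, 7.53, 8.44 and 7.82 against 7.46, 7.35, 7.40 and 7.23. Here the groups did not overlap, and the difference was -0.56 (SE 0.15; limma adjusted p = 0.0704). Cd3d differed by -0.18 (SE 0.082) and Cd247, the zeta chain, by -0.05 (SE 0.051), with ranges that overlapped.

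None of the 3 coreceptor genes passed. Cd8a, the alpha chain of CD8 on cytotoxic T cells, read 7.16, 6.97, 8.26 and 7.05 in nulliparous and 7.03, 6.90, 6.95 and 6.90 in parous WT tumours. Replicate 3 was more than a log2 unit above the other nulliparous tumours, which lay among or just above the parous ones, and the difference of -0.41 did not pass (limma adjusted p = 0.379). Cd8b1, the beta chain, showed the same order with 7.92 in replicate 3 and 6.62 to 6.96 in the other nulliparous tumours, against 6.52 to 6.65 in parous ones (difference -0.54; limma adjusted p = 0.179), and without replicate 3 its difference was -0.27 (limma adjusted p = 0.114). Cd4, the coreceptor of helper T cells, read 6.59, 6.41, 7.03 and 7.0 against 6.47, 6.59, 6.47 and 6.60 (difference -0.22; limma adjusted p = 0.374), with replicates 3 and 4 of the nulliparous tumours above all others.

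Of the signalling and costimulation genes, 7 of 7 had differences below 0 and none passed. Cd28, the main costimulatory receptor, was separated between the groups, at 6.10 to 6.35 against 5.92 to 6.03 (difference -0.21; limma adjusted p = 0.103). Ptprc, which encodes the phosphatase CD45 of all leukocytes, read 9.35, 8.84, 9.93 and 9.60 against 8.81, 9.21, 8.08 and 8.43, an overlap that left the difference of -0.80 (SE 0.35) short of the threshold (limma adjusted p = 0.285). The adaptor Lat and the adhesion receptor Cd2 differed by -0.25 and -0.29, and the inducible costimulator Icos by -0.23. The kinase Zap70 and the inhibitory coreceptor Cd5 were nearly level, at -0.08 and -0.04.

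None of the 3 genes of the interleukin 2 receptor and regulatory T cells passed, although both receptor chains had differences below 0. Il2rb, the beta chain that NK cells and activated T cells use for interleukins 2 and 15, read 6.91, 6.41, 7.88 and 6.99 against 6.5, 6.13, 6.07 and 6.12. Nulliparous replicate 2 alone lay within the parous range (difference -0.84, SE 0.23; limma adjusted p = 0.0798). Il2ra, the alpha chain of activated and regulatory T cells, read 6.26, 5.89, 6.58 and 5.96 against 5.63, 5.82, 5.77 and 5.76, without overlap (difference -0.43, SE 0.12; limma adjusted p = 0.0875). Foxp3, which defines regulatory T cells, read 7.29 to 7.39 in nulliparous and 7.30 to 7.41 in parous tumours, a difference of 0.01 (SE 0.063).

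Among the checkpoint genes the ligand Cd274 (PD-L1) carried the widest difference. It read 9.15, 8.36, 9.48 and 8.84 in nulliparous and 7.97, 7.91, 7.91 and 7.76 in parous WT tumours. Every nulliparous tumour lay above every parous one, and the difference of -1.07 (SE 0.26) came to the edge of the threshold without passing (limma adjusted p = 0.0502). The receptors of T cells showed less: Pdcd1 (PD-1) read 6.81, 6.80, 7.56 and 6.82 against 6.69 to 6.79, so that apart from replicate 3 the tumours of both groups lay close together. Tigit, a receptor of T and NK cells, had 8.61 in replicate 3 and 7.68 to 7.83 in the other nulliparous tumours, within the parous range of 7.65 to 7.89. Differences were -0.24 for Pdcd1, -0.21 for Tigit, -0.31 for Havcr2 (TIM-3, also found on macrophages), -0.14 for Lag3 and -0.13 for Ctla4, with limma adjusted p from 0.439 to 0.583.

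Of the 4 transcription factors none passed. Ikzf1, which encodes Ikaros of many blood lineages, read 8.68 to 8.95 in nulliparous and 8.11 to 8.61 in parous WT tumours, separated but not past the threshold (difference -0.56, SE 0.22; limma adjusted p = 0.233). Tbx21 (T-bet), the driver of interferon gamma producing T cells, differed by -0.22 (limma adjusted p = 0.235), and its relative Eomes by -0.02. Gata1, a factor of red cell, mast cell and platelet lineages rather than of T cells, differed by 0.06.

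**Figure D4:**
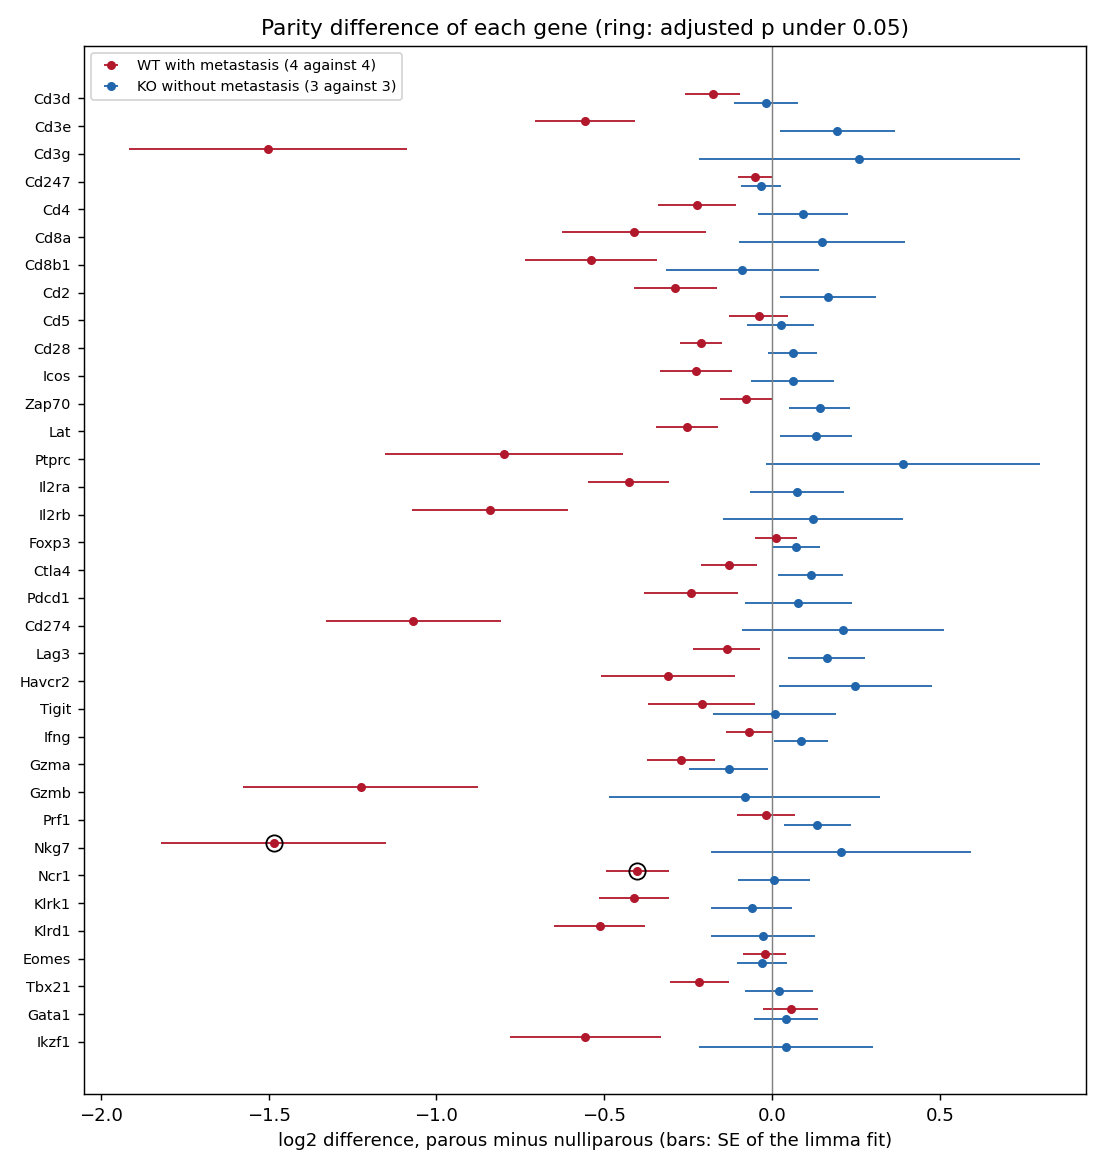
Parous minus nulliparous difference in log2 level with its standard error for the 35 genes, in WT tumours with metastasis and in KO tumours without metastasis. In WT tumours 33 of 35 lie below 0, and in KO tumours 8 of 35 do.

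The calls of Nkg7 and Ncr1 depended on which tumours were in the fit. With only the WT parous and WT nulliparous tumours in it, Cd274 and Ikzf1 passed and neither Nkg7 nor Ncr1 did. Without WT nulliparous replicate 3 the median of the 35 was -0.14, 30 of 35 differences were below 0, 14 were lower at an unadjusted p under 0.05 (10.1% of all genes), and Nkg7 still fell by 1.04 (SE 0.17; limma adjusted p = 0.0148). Ncr1 was then at -0.37 (limma adjusted p = 0.0823), Cd8a at -0.11, Pdcd1 at -0.05 and Tigit at 0.003. Without WT nulliparous replicate 2, the tumour nearest to the parous group, 10 of the 35 passed, against 439 of all genes. These were Cd274, Cd3e, Cd3g, Gzmb, Il2ra, Il2rb, Klrd1, Klrk1, Ncr1 and Nkg7. None of the 35 passed, against 57 to 409 of all genes, when any of WT nulliparous replicates 1 and 4, WT parous replicates 1 to 4 or KO nulliparous without metastasis replicate 1 was left out. Nkg7 then had limma adjusted p-values of 0.0505 to 0.108 and Ncr1 of 0.0534 to 0.137, with differences of -1.57 to -1.44 and -0.42 to -0.35. The call of Nkg7 was also lost without KO parous without metastasis replicates 1 or 3 (0.0511 and 0.0503), and that of Ncr1 without either KO parous sample with metastasis (0.0513 each), KO parous without metastasis replicate 3 (0.0547) or KO nulliparous without metastasis replicate 2 (0.0502), although their differences stayed at -1.48 and -0.40.

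**Figure D5:**
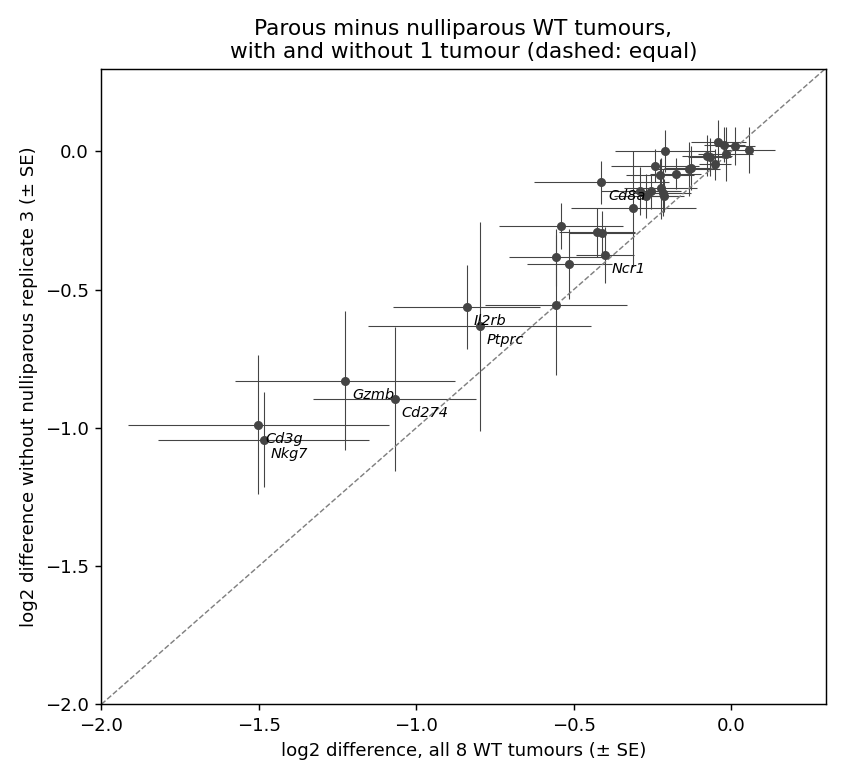
Parous minus nulliparous difference in WT tumours for the 35 genes, with all tumours (x axis, log2) and without WT nulliparous replicate 3 (y axis, log2); bars are standard errors. Nkg7 moves from -1.48 to -1.04 and Cd8a from -0.41 to -0.11.

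Other genes of the same cells and pathways were counted in lists chosen with earlier results known. Their counts of called genes are read against 1.86% of all genes lower and 0.542% higher. Of 53 measured further T and NK cell genes 2 fell in parous WT tumours, the protease Ctsw of cytotoxic cells (-0.88, SE 0.20; limma adjusted p = 0.042) and Klrc1, an NKG2 chain that pairs with CD94 (-0.44, SE 0.098; limma adjusted p = 0.0378), none rose, and the median was -0.14. Of 30 further checkpoint genes 1 rose, Cd200 (0.89, SE 0.20; limma adjusted p = 0.0366), the ligand of an inhibitory myeloid receptor, and none fell (median -0.07). Of 27 cytokine and homing genes 4 fell: the T cell attracting chemokines Cxcl9 (-1.96, SE 0.42) and Cxcl10 (-0.69, SE 0.14), the interleukin 15 receptor chain Il15ra (-0.88, SE 0.20) and Tnf (-0.46, SE 0.099). Of 20 genes in the interferon gamma response list, which also holds the signalling kinase Jak1, 7 fell and none rose (median -0.90). Among them were Cxcl9 and Cxcl10 again, which both lists hold, the peptide transporter Tap1 (-1.84), the immunoproteasome subunit Psmb9 (-1.77) and Jak1 (-0.83). Ifng itself differed by -0.07. Of 9 listed NKG2D ligand genes 2 were measured, with a median of -0.009.

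In most lists of markers of other cells of the tumour bed, most differences were also below 0, and their part in the result was not tested. In the macrophage list 16 of 17 genes were below 0 (median -0.56), and its mean log2 level was 9.36 to 9.75 in nulliparous and 8.79 to 9.73 in parous WT tumours. All 12 fibroblast genes were below 0 (median -0.63), with levels of 9.64 to 10.54 against 8.16 to 10.33, and all 12 muscle genes (median -0.83), with 7.37 to 10.95 against 7.36 to 8.43. The dendritic cell list had 12 of 12 below 0 (median -0.16; 6.79 to 7.10 against 6.64 to 6.83). None of these 4 lists had a gene past the threshold. At an unadjusted p under 0.05, 6 macrophage, 3 fibroblast, 1 muscle and 3 dendritic cell genes were lower, against 9.81% of all genes. All 9 adipocyte genes were below 0 (median -0.49; 7.73 to 8.88 against 7.31 to 8.12), of which the lipase Lipe fell (-0.70, SE 0.14; limma adjusted p = 0.0274). Of 11 mast cell and erythroid genes 9 were below 0 (median -0.19) and 4 lower at an unadjusted p under 0.05, and the mast cell chymase Cma1 fell (-0.27, SE 0.056; limma adjusted p = 0.0304). Of 12 endothelial genes 11 were below 0 (median -0.17), none passed and 0 reached an unadjusted p under 0.05. The B and plasma cell list had 13 of 15 below 0 and 5 lower at an unadjusted p under 0.05, with none past the threshold (median -0.07; 7.14 to 7.36 against 6.97 to 7.22). The lymph node list had 7 of 9 below 0 (median -0.03) and the neutrophil list 4 of 12 (median 0.04), with none past the threshold, and the luminal list had 0 of 10 past the threshold (-0.06; 11.38 to 11.67 against 11.40 to 11.54). WT nulliparous replicate 3, the tumour with the highest lymphocyte genes, stood at 9.62 for the macrophage, 9.79 for the fibroblast and 7.37 for the muscle list, each inside or at the low end of its group, and at 10.25 for the interferon gamma response list, the highest of its group.

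In KO mice without metastasis a history of pregnancy went with no call among the 35 genes. In this comparison of 3 parous and 3 nulliparous tumours limma called 0 of the 35 and 0% of all genes, and at an unadjusted p under 0.05 it gave 0 of the 35 and 3.29% of all genes (1.56% lower and 1.73% higher). The median was 0.07, and 8 of 35 differences were below 0 (47.4% of all genes). The groups did not overlap upward in 5 genes (3.14% of all genes), Cd2, Cd3e, Cd4, Ctla4 and Lat, and downward in Klrk1 (2.9% of all genes). Cd3e read 7.73, 7.46 and 7.42 in parous and 7.37, 7.35 and 7.31 in nulliparous KO tumours, and Cd2 read 6.27, 6.19 and 6.19 against 6.08, 6.02 and 6.04. Nkg7 read 6.56, 6.65 and 6.61 against 6.33, 6.25 and 6.62, a difference of 0.21 (SE 0.39), and all of these KO values lay within or below the parous WT range of 6.48 to 6.74.

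The effect of parity was then set between the genotypes, KO without metastasis minus WT with metastasis. No gene passed (0% of all genes; smallest limma adjusted p of the 35, 0.357 for Nkg7, Cd3e and Cd274). At an unadjusted p under 0.05, 13 of the 35 had a higher parity difference in KO, against 5.75% of all genes, and none a lower one (3.89% of all genes). The differences of the contrasts were 1.69 (SE 0.51) for Nkg7, 1.28 (SE 0.40) for Cd274, 0.75 (SE 0.23) for Cd3e and 0.41 (SE 0.14) for Ncr1, with a median of 0.32 over the 35, of which 2 were below 0 (45.1% of all genes). Genotype and metastasis status cannot be told apart here. The WT parity difference is a part of this comparison, so the same nulliparous WT tumours enter it, and it is not separate evidence.

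Nulliparous tumours of KO mice without metastasis (3) were also compared with those of WT mice with metastasis (4). Of the comparisons run, whose group sizes differ, this gave the most of the 35 genes without overlap. All 35 differences were below 0 (53.4% of all genes), with a median of -0.30, and none passed limma's adjusted threshold, as 0.246% of all genes did (0.155% lower and 0.0903% higher). At an unadjusted p under 0.05, 24 of the 35 were lower, against 6.38% of all genes, and none higher (6.11%). In 20 genes every KO value lay below every WT value, against 6.8% of all genes, and in none above (6.05% of all genes). This comparison shares the nulliparous WT tumours with the parity comparison in WT mice, so the values of that group enter both.

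Ncr1 came nearest, at 5.46, 5.38 and 5.45 in the KO and 5.68 to 6.12 in the WT tumours (difference -0.54, SE 0.10; limma adjusted p = 0.0506). Nkg7 read 6.33, 6.25 and 6.62 against 7.14 to 9.43 (-1.70, SE 0.36; limma adjusted p = 0.0717), and Cd274 read 7.77, 7.30 and 7.87 against 8.36 to 9.48 (-1.31, SE 0.28; limma adjusted p = 0.0717). Gzmb stood at 6.52, 6.36 and 6.73 against 7.30 to 9.37 (-1.64, SE 0.38; limma adjusted p = 0.0837). In each of these 4 genes the lowest WT tumour, replicate 2, still lay above all KO tumours. Cd3g (-1.77, SE 0.45; limma adjusted p = 0.117), Il2rb (-0.96), Cd8a (-0.66) and Cd2 (-0.51) were likewise without overlap. Gata1 (-0.04), Eomes (-0.07), Foxp3 (-0.10) and Cd5 (-0.10) differed least.

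The count of passing genes moved with single tumours here too. Without WT nulliparous replicate 2, 9 of the 35 passed (Cd274, Cd3e, Cd3g, Gzmb, Il2rb, Klrd1, Klrk1, Ncr1 and Nkg7), against 179 of all genes. Without WT nulliparous replicate 3 Nkg7 passed, against 28 of all genes. Without KO parous without metastasis replicate 2 Cd274 and Ncr1 passed, against 152 of all genes. Without replicate 3 the median was -0.20 and all 35 remained below 0. Of the companion genes Cxcl10 (-0.88, SE 0.16), Tap1 (-1.91, SE 0.34) and Psmb9 (-1.90, SE 0.32) fell, each with a limma adjusted p under 0.05, and the interferon gamma response list had a median of -0.90 over 20 genes. The fibroblast list differed less than in the parity comparison, with 11 of 12 genes below 0 and a median of -0.18. The macrophage list had 16 of 17 below 0 with a median of -0.57, and 7 lower at an unadjusted p under 0.05. All 12 dendritic cell genes (median -0.19; 7 lower at an unadjusted p under 0.05), all 9 adipocyte genes (median -0.62), all 12 endothelial genes (median -0.26) and 14 of 15 B and plasma cell genes (median -0.13; 6 lower at an unadjusted p under 0.05) were below 0 as well, none past the threshold. The part of these lists in the result was not tested.

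Among parous mice few of the genes separated KO without metastasis from WT with metastasis. KO without metastasis minus WT with metastasis (3 against 4) gave no call (0% of all genes), 1 of the 35 lower at an unadjusted p under 0.05 (Cd247; 1.67% of all genes), and a median of -0.025. Il2ra was higher without overlap (3.91% of all genes), at 5.85, 5.82 and 5.83 against 5.63 to 5.82, with a gap of under a hundredth of a log2 unit, and no gene was lower without overlap (1.93% of all genes). Nkg7 differed by -0.009 (SE 0.36) and Gzmb by -0.50 (SE 0.38).

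With metastasis in both genotypes, KO parous tumours (2 samples) were compared with WT parous tumours (4). No gene passed (0% of all genes). Of the 35, 30 were below 0 (58.4% of all genes) and 1, Cd247, was lower at an unadjusted p under 0.05 (2.83% of all genes, and 5.73% in either direction), with a median of -0.09. In 13 genes both KO samples lay below all WT samples (11.7% of all genes), among them Cd3d, Cd3g, Cd8a, Cd8b1, Nkg7, Ncr1 and Klrd1. Nkg7 read 6.40 and 6.13 against 6.48 to 6.74 (difference -0.35, SE 0.41), and Ncr1 5.37 and 5.36 against 5.43 to 5.64. Cd274 ran the other way and alone was higher without overlap (6.27% of all genes), at 8.25 and 8.56 against 7.76 to 7.97, a difference of 0.52 that did not pass. The KO group rests on 2 samples, of which 1 is the mean of the near-identical arrays.

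Within KO parous mice, tumours with metastasis (2 samples) were set against those without (3). No gene passed (0% of all genes), and 0 of the 35 reached an unadjusted p under 0.05 (4.04% of all genes, 2.44% lower and 1.59% higher). The median was -0.08, 29 of 35 differences were below 0 (61.1% of all genes), and 13 genes were lower without overlap (10% of all genes) and none higher (4.41% of all genes). Cd3e, 1 of the 13, read 7.09 and 7.31 with and 7.73, 7.46 and 7.42 without metastasis.

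Across all tumours, the effect of genotype adjusted for parity and metastasis gave no call (0% of all genes). It placed 28 of 35 genes below 0 (62% of all genes) with a median of -0.07, and 2, Cd247 and Ncr1, were lower at an unadjusted p under 0.05 (2.68% of all genes). The moderated F test over the 6 groups called none of the 35 and 0.436% of all genes. At an unadjusted p under 0.05 it gave 14 of the 35, against 12.4% of all genes. The smallest limma adjusted p of the 35 was 0.0723 for Ncr1, followed by 0.108 for Gzmb and 0.113 for Nkg7. Companion genes did pass this F test. In the B and plasma cell list Ms4a1, Mzb1, Bank1 and Cd79a were among those that passed, and the lymph node list also holds Ms4a1 and Cd79a. In the interferon gamma response list Tap1 and Psmb9 passed. One of the 6 groups is the single KO nulliparous tumour with metastasis, which stood highest for the B and plasma cell list (7.84). Its part in these calls was not tested.

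The single KO nulliparous tumour with metastasis allows no test, and its values are given beside the others. It lay within the WT nulliparous range for Gzmb (8.11) and Nkg7 (7.47), where the 3 KO nulliparous tumours without metastasis had 6.36 to 6.73 and 6.25 to 6.62. Its Prf1 value of 7.52 was the highest of all samples, for a gene that differed little between the groups. Il2ra (6.45), Icos (6.68), Ifng (7.08) and Ikzf1 (9.13) were also high in it. Ncr1 was not: at 5.47 it lay with the other KO tumours, whose values ran from 5.29 to 5.59. This tumour also had the highest level of the B and plasma cell list, 7.84 against 6.93 to 7.36 in all other samples, and of the lymph node list, 7.02 against 6.13 to 6.60, and their part in its lymphocyte values was not tested.

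KO parous without metastasis replicate 2 showed a different mixture. Ptprc (9.81), Havcr2 (8.39) and Cd274 (8.52) were high in it, against 8.35 and 8.39 for Ptprc, 7.33 and 7.46 for Havcr2, and 7.78 and 7.28 for Cd274 in the other tumours of its group. Nkg7 (6.65), Gzmb (6.35), Cd3e (7.46) and Klrk1 (5.05) lay near the other tumours of its group. Those had 6.56 and 6.61 for Nkg7, 6.28 and 6.73 for Gzmb, 7.73 and 7.42 for Cd3e, and 5.01 and 4.98 for Klrk1. Nkg7 and Klrk1 were thus highest in replicate 2 within the group, by a small gap. The macrophage list (10.09) and the fibroblast list (10.71) were the highest of the 17 samples in this tumour; their part in these values was not tested.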

How the data were processed

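Per the submitters' processing notes, the authors used RMA and the oligo package, with no version or genome build named; the deposited values are log2 expression of 35556 probe sets on 18 arrays. RMA, which subtracts background and equalises the arrays' quantiles, compresses differences of dim genes. Precision is limited by the number of arrays. Probe sets of 1 gene were kept, the highest mean per gene, which left 19938 genes. KO parous with metastasis replicates 2 and 3 were averaged because they were nearly identical, which departs from the planned 18 arrays.

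Tests used limma 3.58.1 (R 4.3.3), with lmFit and 2-sided eBayes statistics, on 6 group means with 1 shared spread, an additive fit for genotype and a moderated F test, with Benjamini-Hochberg adjustment over all genes in each of 9 comparisons and a threshold of 0.05. The fits were tested on simulated data. The members and lists were chosen with earlier results of these data known. Every member was named, and up to 4 passing genes of each of 16 companion lists in a comparison, those with the smallest adjusted p. The labels call the arrays biological replicates. Alternatives were other filters, scalings, variance settings, samples in the fit, a replicate block and leaving out each sample. Sequences came from RefSeq (GRCm38.p6), used for names and start regions alone.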

Additional observations from a re-analysis of the deposited data

Results flagged for a closer look

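In groups of 4, a tumour is listed here when its gap to the nearest other tumour, divided by the range of the group, exceeds Dixon's critical value for 4 samples. Of 70 combinations of gene and WT group tested, 8 were listed, and chance alone lists about 5%. Among WT nulliparous tumours all 4 listed values belonged to replicate 3, each the highest of its group. Cd8a read 8.26 there against 6.97 to 7.16 in the others, Pdcd1 7.56 against 6.80 to 6.82, Tigit 8.61 against 7.68 to 7.83, and Gzma 5.79 against 5.32 to 5.39. Among WT parous tumours replicate 1 was highest for Cd3d, at 5.78 against 5.68 to 5.69, and for Il2rb, at 6.5 against 6.07 to 6.13, and lowest for Cd5, at 6.87 against 6.96 to 6.98. WT parous replicate 3 was lowest for Klrk1, at 4.92 against 5.08 to 5.09.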

How the results depend on the processing

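In the parity comparison of WT tumours, the count of the 35 genes past the threshold was 2, and it was 1 of the 6 left (Cd274) without the dimmest 40% of genes, 1 (Nkg7) with arrays shifted to the same median, 4 with a variance trend and 5 with all 18 arrays kept apart. With only the groups compared, Cd274 (limma adjusted p = 0.0328) and Ikzf1 (limma adjusted p = 0.0374) passed, while Nkg7 and Ncr1 did not. The count over all genes with only the groups compared was 878. For KO without metastasis against WT with metastasis in nulliparous mice, where none of the 35 passed, 1 passed with the mean of all probe sets, with quantile normalization again, with arrays shifted to the same median and with a variance trend (Ncr1 each time), and 3 with all 18 arrays; the count over all genes was 128 with all 18 arrays and 1 with only the groups compared. In the F test 1 of the 35 passed with a variance trend and 2 with all 18 arrays, where 200 genes passed, and 50 genes passed without the dimmest 40%. Over the 6 genes left by that filter the median was -0.56 for parity in WT, 0.68 for the difference of parity contrasts, and -0.48 and 0.18 for KO without metastasis against WT with metastasis in nulliparous and parous mice; the last has the opposite sign to the median of -0.025 over all 35, which was also above 0, at 0.005, at the upper end of leaving out single samples. The same filter put the medians for KO against WT in parous mice with metastasis and in the additive fit at 0.004 and 0.005, against -0.09 and -0.07 over all 35. Nkg7 and Ncr1 kept their direction for parity in WT under every alternative that kept them. That filter leaves fewer genes; other causes were not tested. Arrays shifted to the same median moved the median of all genes in the WT parity comparison from -0.005 to 0.031.

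Leaving out each sample in turn gave 0 to 10 of the 35 and 57 to 770 of all genes for parity in WT, and 0 to 9 and 0 to 179 for the nulliparous comparison. For parity in WT the 10 and the 770 came from different fits: 439 genes passed beside the 10, and 3 of the 35 passed beside the 770. The F test gave 0 to 5 and 21 to 204. Over all genes the range was 0 to 2 for parity in KO, 0 to 17 for KO against WT in parous mice with metastasis, 0 to 5 for metastasis in KO parous mice, 0 to 8 for the difference of parity contrasts and 0 to 2 for KO without metastasis against WT with metastasis in parous mice. The median of the 35 for parity in WT lay between -0.33 and -0.14.

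Replicate numbers did not pair the samples: over 27 same-numbered pairs the median correlation of deviations was 0.01 (-0.37 to 0.43), against 0.01 over 74 other pairs. With the replicate number as a block, 0 of the 35 and 212 of all genes passed for parity in WT (limma adjusted p 0.0594 for Nkg7 and 0.0599 for Ncr1), 0 genes in the nulliparous comparison and 14 in the F test.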
